A study of Mus musculus with 17 samples.

Results

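The comparison set all peripheral pools of retinal pigment epithelium (RPE) cells against the central pools, to find genes whose level followed position in the eye whether or not the cell carried GFP. Its members were the 17 RNA-seq libraries of the series, chosen by their labels and not by any measured value: 11 from the periphery and 6 from the center. The peripheral libraries fell into 6 of GFP+ cells (GFP+ periphery, mice 1, 2, 3, 4, 5 and 7) and 5 of GFP-negative cells (ctrl periphery, mice 1, 2, 4, 5 and 7), and the central libraries were all of GFP-negative cells (ctrl center, mice 1, 2, 4, 5, 6 and 7). Every mouse was Serpine3GFP/+ on the C57BL6/J background and was 2 months old, so that the controls carried the reporter allele too. In that allele GFP with a bGH polyadenylation signal was placed behind the start codon of Serpine3, so that each animal kept 1 intact copy of the gene. Each library was a hand-picked pool, of 10 to 15 cells per the labels and of fewer per the methods, and the libraries of mouse 1 carried 2 animal numbers.

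The RPE is the pigmented cell sheet between the photoreceptors and the choroid. It absorbs stray light with melanin, regenerates the visual chromophore, takes up shed photoreceptor tips and lays down part of Bruch's membrane beneath it. Central RPE cells are small and densely packed, whereas peripheral cells are larger and border the pigmented epithelium of the ciliary body. A gene was taken as a position gene where it passed the test of all peripheral against all central libraries (edgeR's quasi-likelihood test, Benjamini-Hochberg adjusted p under 0.05) and both peripheral groups were shifted the same way from the center.

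Total counts ranged from 9896118 to 22467079 per library, and 10312 of 22253 gene symbols had enough counts to be tested. The label of the sort held: Serpine3 lay between 6.20 and 22.4 CPM (counts scaled to the TMM-adjusted library size) in the 6 GFP+ libraries, at 0.279 or below in the 5 ctrl peripheral ones and at 0 in all 6 central ones. Of the RPE genes used as defining markers, Rpe65 ranged from 2993 to 11536 CPM and Otx2 from 469 to 865 CPM, whereas Best1, a chloride channel of the RPE, was absent or nearly so, with at most 0.200 CPM in any library. Of the defining genes of neighboring cells, Grm6, Pecam1, Col1a1, Aif1 and Wfdc1 stayed at or below 2.31 CPM in every library. Sox10 (35.2 to 116 CPM) and Glul (374 to 775 CPM) were present in all 17 libraries. The central library of mouse 5 stood farthest from the others on the first principal component, followed by that of mouse 7.

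Of the 10312 genes tested, 3 were higher in the peripheral libraries (0.0291% called) and 0 were lower. The 3 genes were Wfikkn2, Lgi1 and Sdcbp, and both peripheral groups were shifted the same way for all 3. That condition set few genes apart, since 761 of the 762 genes at an unadjusted p under 0.05 met it too. At that level there were 353 genes higher (3.42%) and 409 lower (3.97%), so that few of the many small p-values stood up to the adjustment at a biological coefficient of variation of 1.26. As a whole profile, the 2 positions gave a larger pseudo-F than most assignments of the libraries to position (pseudo-F 1.95, exact permutation p = 0.00412 over 12376 assignments). The permutation took libraries of 1 mouse as independent, and unequal spread can move the pseudo-F too. On the first principal component the central libraries ran from -38.5 to 204 and the peripheral ones from -53.3 to 14.6. Distance and spread cannot be told apart by this p-value. DESeq2, the tool named in the study's methods, called 211 genes higher and 273 lower, including the same 3 genes. When the mouse was entered as a replicate block, edgeR called 0 genes in either direction, and Wfikkn2 had an adjusted p of 0.272. With the mouse as a random effect, limma voom called Kcnab1, Mif and mt-Atp6 and none of the 3 genes above. In bulk pools, fewer cells of a kind and less RNA per cell cannot be told apart. Without the central library of mouse 5, or without that of mouse 7, Wfikkn2 was the 1 gene called. Without the central library of mouse 2, the count was 24 higher and 68 lower, and without the ctrl peripheral library of mouse 5 it was 14 higher and 67 lower.

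RefSeq promoters (GRCm38.p6, 250 bases before to 50 after the start) were found for 2 of the 3 position genes, and they are shown because these genes moved together with position. Capitals mark matches, on either strand, to CACGTG or CATGTG (E-boxes of the kind MITF binds), TAATCC (the core bound by OTX2 and CRX) or GGAATG (the core bound by TEAD factors).
Wfikkn2, chr11:94242530-94242829, minus strand: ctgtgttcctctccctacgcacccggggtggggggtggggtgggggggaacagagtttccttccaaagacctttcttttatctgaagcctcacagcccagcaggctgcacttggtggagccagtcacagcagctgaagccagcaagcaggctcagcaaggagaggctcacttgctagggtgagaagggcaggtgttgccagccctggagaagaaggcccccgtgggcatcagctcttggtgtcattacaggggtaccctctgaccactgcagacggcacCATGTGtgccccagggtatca
Lgi1, chr19:38264437-38264736, plus strand: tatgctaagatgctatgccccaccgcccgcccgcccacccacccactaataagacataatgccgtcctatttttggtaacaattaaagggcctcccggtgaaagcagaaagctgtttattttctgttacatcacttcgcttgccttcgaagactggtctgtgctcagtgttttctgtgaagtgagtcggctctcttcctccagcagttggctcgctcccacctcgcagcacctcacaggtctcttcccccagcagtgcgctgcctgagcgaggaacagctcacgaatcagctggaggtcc
The Wfikkn2 window held 1 match, CATGTG, which begins 30 bases after the RefSeq start, and the Lgi1 window held none. This Wfikkn2 window lies inside the gene span of GENCODE given below and not at its upstream end. The 2 annotations thus differ on where Wfikkn2 starts, and sequence before the GENCODE start was not searched. Over all 32851 promoters of the table, CATGTG (or its reverse complement CACATG) was found in 14.2%, GGAATG in 14.7%, CACGTG in 7.15% and TAATCC in 7.06%. Over the 10595 promoters of tested genes the shares were 8.27%, 11.8%, 10.2% and 5.82% in the same order.

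Wfikkn2 encodes a secreted protein that binds myostatin and GDF11 and keeps these TGF-beta family ligands from their receptors (GRCm38, chromosome 11, 94235956 to 94246005, minus strand). Its level in the 6 GFP+ libraries had a lowest value of 99.2, a median of 177 and a highest value of 472 CPM. The 5 ctrl peripheral libraries were at 94.1, 112, 148, 312 and 173 CPM in mice 1, 2, 4, 5 and 7. The 6 central libraries ran from 12.2 over a median of 25.2 to 36.5 CPM. The lowest peripheral library was thus above the highest central one, and both peripheral libraries lay above the central library in 5 of 5 mice with all 3 pools. Over all libraries the level was 195 ± 118 CPM in the periphery (SD, n = 11) and 24.9 ± 9.78 CPM in the center (SD, n = 6), and Wfikkn2 rose with a log2 fold change of 2.88 (SE 0.42, adjusted p = 0.00538). Each peripheral group carried the shift on its own estimate, at 3.03 in GFP+ cells (adjusted p = 0.00839) and 2.68 in ctrl cells (adjusted p = 0.0644). It was called in 17 of 17 fits that left out 1 library. It lost the call in the 3 fits with the mouse as a term: as a block (adjusted p = 0.272), as a block on counts summed by mouse (0.183) and as a random effect in limma voom (0.259).

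**Figure D1:**
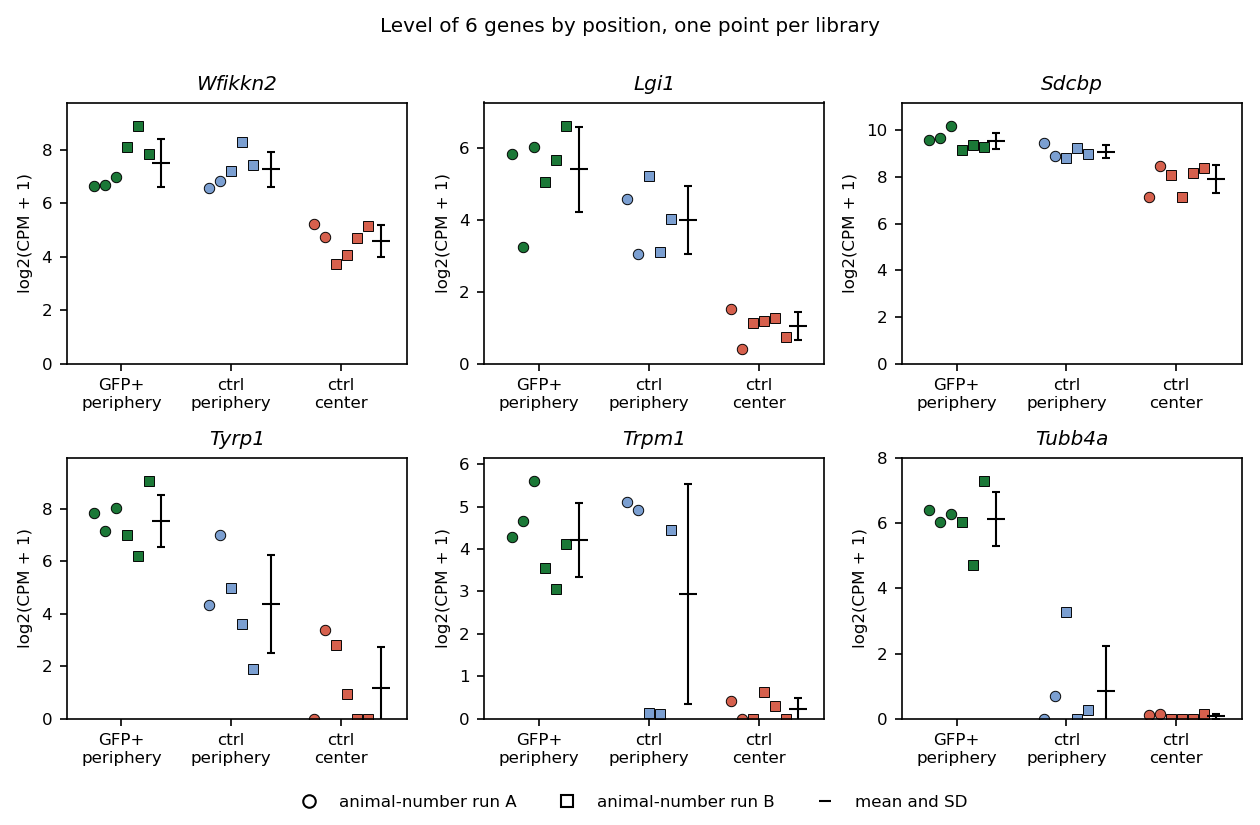
Level of 6 genes in every library, as log2(CPM + 1), for GFP+ periphery, ctrl periphery and ctrl center. Circles and squares are the 2 runs of animal numbers, and the bars at the right of each group are the mean and SD. Wfikkn2, Lgi1 and Sdcbp separate all 11 peripheral from all 6 central libraries, whereas in Trpm1 the ctrl peripheral libraries of mice 4 and 5 and in Tubb4a most ctrl peripheral libraries lie at the central level.

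The ligand and receptor side of the same pathway was measured as well. Of the listed TGF-beta family inhibitors, 7 were tested by edgeR, and Wfikkn2 was the 1 past the adjusted test. DESeq2 called Wfikkn2 and Bambi higher and Ltbp1 lower (log2 fold change -3.51, adjusted p = 0.0164). At an unadjusted p under 0.05 by edgeR, Wfikkn2 was higher and Bgn, a small proteoglycan, was lower (log2 fold change -5.79, adjusted p = 0.217, between 0 and 74.8 CPM in the center). The ligand Gdf11 lay between 19.0 and 70.1 CPM in the periphery and between 0.499 and 49.0 CPM in the center (log2 fold change 1.08, SE 0.74, adjusted p = 0.851), and the myostatin gene Mstn was at or below 0.0998 CPM throughout. Among 5 ligands tested, Bmp4, a dorsal patterning signal of the eye, was the 1 with a small unadjusted p, at 200 to 351 CPM in the periphery and 258 to 794 CPM in the center (log2 fold change -0.82, SE 0.22, adjusted p = 0.114). The 11 receptors and targets tested gave 0 at an unadjusted p under 0.05. Over all genes tested, 3.42% were higher and 3.97% lower at that level.

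Lgi1 encodes a secreted leucine-rich glycoprotein known for binding ADAM22 and ADAM23 at synapses (chromosome 19, 38264536 to 38312214, plus strand, overlapping Gm42723 on the other strand). It ran from 8.50 over 53.0 to 96.7 CPM in GFP+ cells. In ctrl peripheral cells it was at 23.1, 7.31, 36.6, 7.62 and 15.2 CPM in mice 1, 2, 4, 5 and 7, and in the center it was between 0.330 and 1.85 CPM with a median of 1.25. The central pools together held 72 Lgi1 counts, so that the gene was close to the detection limit there, and no central library reached any peripheral one. Lgi1 rose with a log2 fold change of 4.89 (SE 0.85, adjusted p = 0.0402), with group estimates of 5.40 in GFP+ cells and 3.88 in ctrl peripheral cells.

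Sdcbp encodes syntenin, a PDZ adaptor that ties syndecans to vesicle traffic and exosome formation (chromosome 4, 6365650 to 6408423, plus strand, overlapping Nsmaf on the other strand). It was an abundant transcript in both positions. The GFP+ libraries ran from 579 over 720 to 1158 CPM. The ctrl peripheral libraries were at 713, 480, 448, 603 and 503 CPM and the central ones between 139 and 353 CPM with a median of 280. The groups did not overlap, and Sdcbp rose with a log2 fold change of 1.34 (SE 0.24, adjusted p = 0.0449), of which 1.54 was the estimate for GFP+ and 1.06 that for ctrl peripheral cells. Both calls were close to the threshold: Lgi1 kept its call in 6 of 17 fits that left out 1 library and Sdcbp in 5 of 17, with adjusted p-values up to 0.105 and 0.164. Both lost it with the mouse as a block (adjusted p = 0.355 for each), in limma voom with the mouse as a random effect (0.135 and 0.161) and with the peripheral counts summed by mouse (0.0532 and 0.0665).

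The genes of melanosomes and pigment were the list with the most small p-values on the peripheral side. Of 20 tested members, 7 were higher at an unadjusted p under 0.05 and 0 were lower, against 3.42% and 3.97% of all genes, and the list median was 0.69 against 0.05 over all genes tested. None of the 7 passed the adjusted edgeR test, whereas DESeq2 called Tyrp1, Trpm1, Gpnmb and Pmel higher and Mreg, a melanosome transport gene at or below 8.87 CPM, lower. Tyrp1, which makes a melanin synthesis enzyme, ran from 72.3 over 184 to 523 CPM in GFP+ cells. It was at 19.2, 127, 30.5, 11.3 and 2.67 CPM in ctrl peripheral cells and between 0 and 9.35 CPM in the center (log2 fold change 5.64, SE 1.27, adjusted p = 0.103). GFP+ cells had the highest Tyrp1 in each of 5 mice, and ctrl peripheral cells came second in each.

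Trpm1, a cation channel of melanocytes and ON bipolar cells, ran from 7.32 over 17.5 to 47.2 CPM in GFP+ cells. The ctrl peripheral libraries split, with 33.3, 29.0 and 21.0 CPM in mice 1, 2 and 7 and 0.0963 and 0.0794 CPM in mice 4 and 5. The 6 central libraries held 10 Trpm1 counts in all and no more than 0.554 CPM. So 9 of 11 peripheral libraries lay above every central one and 2 lay among them (log2 fold change 6.54, SE 1.57, adjusted p = 0.103 by edgeR and 5.06e-07 by DESeq2). Grm6, the receptor that ON bipolar cells use together with this channel, was at or below 0.0794 CPM in all libraries.

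Gpnmb, a melanosome glycoprotein, was at 132 to 786 CPM in GFP+ cells, at 171, 156, 43.9, 19.6 and 53.2 CPM in ctrl peripheral cells and at 0.111 to 39.1 CPM in the center (adjusted p = 0.103). Pmel, the fibril protein of the melanosome, gave 1 count in all 6 central libraries together. It ran up to 74.3 CPM in GFP+ cells and up to 16.0 CPM in ctrl peripheral cells, but was at 0 in 1 GFP+ and 2 ctrl peripheral libraries (adjusted p = 0.103), and it overlaps Cdk2 and Dgka on the other strand. The other 3 with an unadjusted p under 0.05 were Dct, a tautomerase of melanin synthesis (log2 fold change 0.75), and the melanosomal transporters Slc24a5 (0.75) and Slc45a2 (3.07). Tyr, the enzyme of the initial step, lay at 95.3 to 468 CPM in the periphery and 181 to 371 CPM in the center (log2 fold change 0.04, SE 0.27). Of the melanocyte genes outside the RPE, 8 were tested, with Pmel and Dct higher and Mc1r lower at an unadjusted p under 0.05. The shares over all genes tested were 3.42% higher and 3.97% lower. The summed level of the list was 583 to 1609 CPM in the periphery and 554 to 908 CPM in the center. The part of other pigment cells in these values was not tested.

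**Figure D2:**
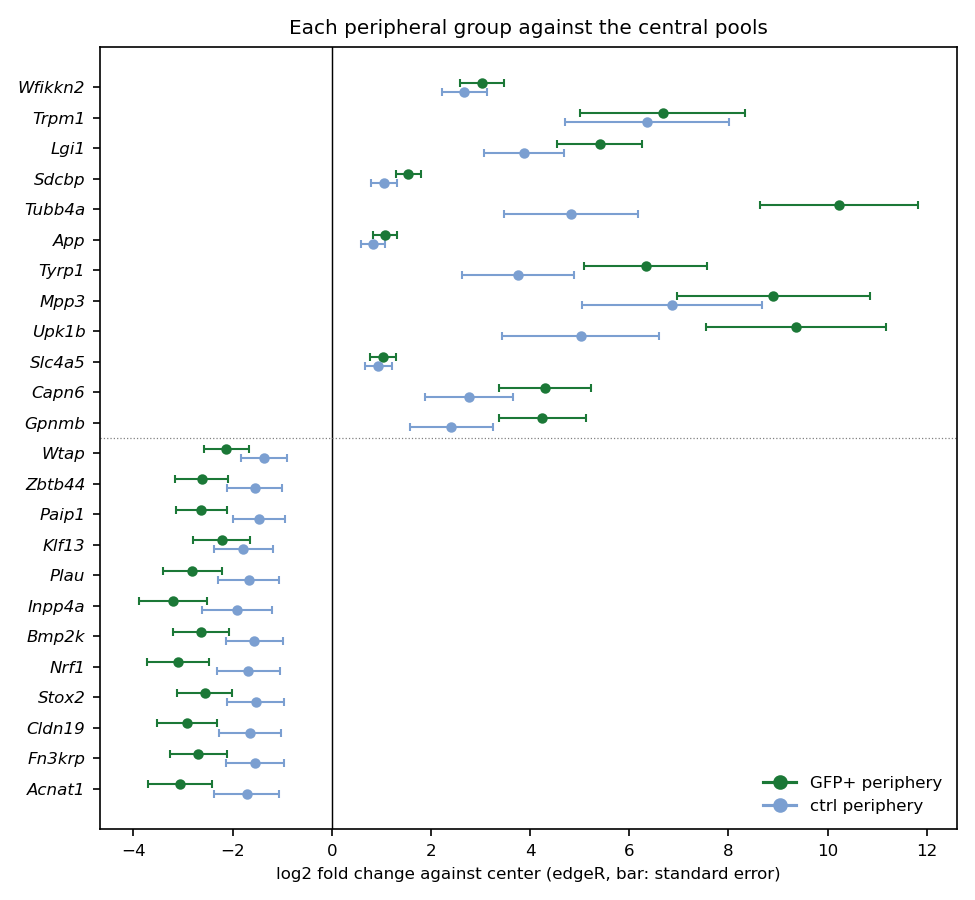
Log2 fold change of each peripheral group against center for the 24 genes named by the rule, with 12 on the peripheral and 12 on the central side, from edgeR fits with all 3 groups (bars are standard errors). All 24 genes have both points on the same side of 0, which the rule requires, and where the central pools hold few counts (Tubb4a, Upk1b, Mpp3, Trpm1) the position of the points depends on the counts near 0.

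Beside the pigment genes, the peripheral side of the ranking held membrane, cytoskeletal and transport genes, none past the adjusted edgeR test (adjusted p = 0.103 for those named here unless given). App, the amyloid precursor, was at 572 to 1055 CPM in the 11 peripheral libraries and at 244 to 558 CPM in the 6 central ones (log2 fold change 0.97, SE 0.22), with no overlap. Slc4a5, a sodium bicarbonate cotransporter also used by the ciliary epithelium, was at 393 to 895 and 195 to 384 CPM (log2 fold change 0.99, SE 0.23), also with no overlap. Capn6, a calpain without protease activity, was at 121 to 311 CPM in GFP+ cells, at 31.3, 136, 86.5, 93.9 and 13.2 CPM in ctrl peripheral cells and at 0 to 29.7 CPM in the center. For each of these genes, both peripheral libraries exceeded the central one in 5 of 5 mice, as held for 8 of the 12 genes named on this side.

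The uroplakins and tubulins divided. Of 12 tested, Tubb4a, Upk1b and Upk3b were higher at an unadjusted p under 0.05 and 0 were lower, against 3.42% and 3.97% of all genes, and DESeq2 called these 3. With the peripheral counts summed by mouse, edgeR called Tubb4a and Upk1b. Tubb4a, a tubulin best known from neurons, ran from 25.5 to 155 CPM in GFP+ cells, but in ctrl peripheral cells it was at 0, 0.622, 8.76, 0 and 0.198 CPM and in the center at or below 0.111 CPM. Upk1b, a tetraspanin of apical membrane plaques, was at 11.5 to 152 CPM in GFP+ cells, at 5.91 and 15.0 CPM in the ctrl peripheral libraries of mice 1 and 2 and at 0 in those of mice 4, 5 and 7. Upk3b, a further plaque protein, was at 203 to 430 CPM in GFP+ cells, at 35.1 to 125 CPM in ctrl peripheral cells and at 0 to 40.0 CPM in the center (adjusted p = 0.105). Mpp3, a membrane scaffold, was at 0.617 to 40.0 CPM, 0 to 12.1 CPM and 0 to 0.168 CPM. Thus Upk3b followed position in all but 1 central library, whereas Tubb4a and Upk1b were mostly levels of the GFP+ pools.

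Besides the adjusted test, 11 genes had all 11 peripheral above all 6 central libraries (0.107% of those tested) and 2 had all peripheral below (0.0194%). The 11 were Wfikkn2, Lgi1, Sdcbp, App, Slc4a5, Cnppd1, Htr3a, Mapk14, Pacsin2, Pcyt2 and Ruvbl2. Htr3a, a serotonin-gated channel subunit, was at 254 to 744 CPM in GFP+ cells, at 48.4, 70.3, 145, 91.0 and 81.4 CPM in ctrl peripheral cells and at 0 to 40.0 CPM in the center (adjusted p = 0.103). The 2 lower genes were Trhde and Olfr784. Trhde, a peptidase that degrades thyrotropin-releasing hormone, was at 0 to 11.7 CPM in GFP+ cells, at 34.7, 40.8, 10.4, 15.8 and 30.1 CPM in ctrl peripheral cells and at 49.3 to 220 CPM in the center (log2 fold change -2.93, SE 0.81, adjusted p = 0.135). Olfr784, an odorant receptor, was at 0.475 to 4.35 CPM in the periphery and 4.62 to 8.48 CPM in the center (adjusted p = 0.842).

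How far both peripheral groups carried the shift was asked with the fits of all 3 groups, in which both comparisons use the same 6 central libraries. GFP+ periphery against center gave 28 genes higher and 84 lower (1.09% called). Ctrl periphery against center gave 0 genes (0% called) by edgeR, with 237 higher and 250 lower at an unadjusted p under 0.05 and 95 called by DESeq2. By the larger of the 2 p-values, 0 genes passed in both groups, Wfikkn2 having the smallest adjusted value of 0.0644, while 142 higher and 124 lower had an unadjusted larger p under 0.05 and DESeq2 called 46. GFP+ and ctrl periphery themselves differed for 0 genes by edgeR, with 105 higher and 138 lower in GFP+ cells at an unadjusted p under 0.05, and for 85 genes by DESeq2. The 112 calls of GFP+ against center fell to 10 without the central library of mouse 5 and to 7 without that of mouse 7, and to between 5 and 11 without the GFP+ library of mouse 1, 2, 3, 4 or 7.

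**Figure D3:**
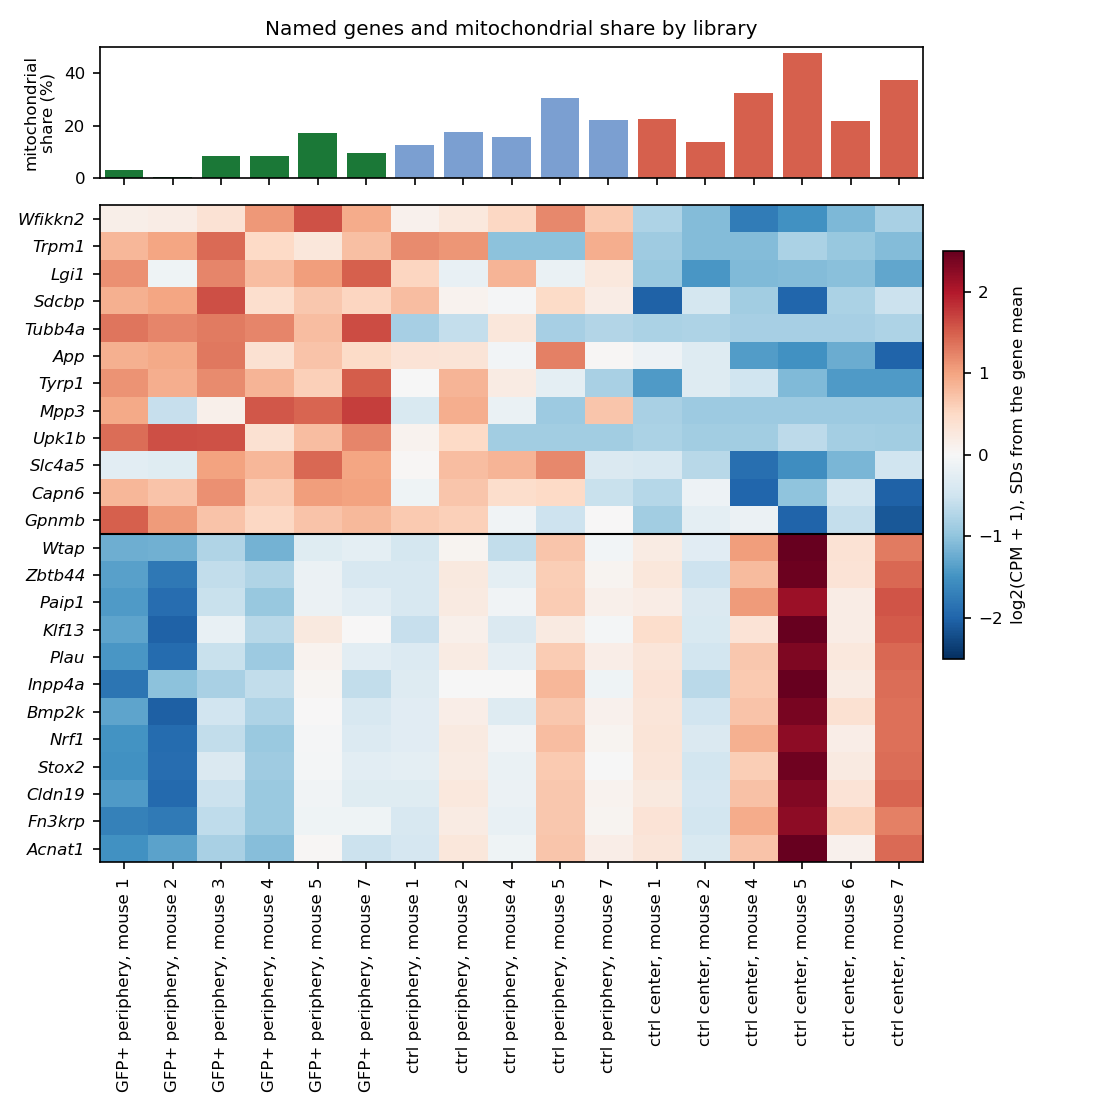
Level of the 24 genes named by the rule in each of the 17 libraries, as log2(CPM + 1) in SDs from the mean of the gene, below bars of the share of counts from mitochondrial genes (%). The 12 genes on the peripheral side each reach their highest value in a GFP+ library, and the 12 on the central side are highest in the central libraries of mice 5 and 7, where the mitochondrial share is 47.3% and 37.0%.

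By edgeR no gene was called lower in the periphery (409 at an unadjusted p under 0.05), and the 12 named on that side by the smallest unadjusted p had an adjusted p of 0.103 each. DESeq2, which called 273 genes lower, called all 12 (adjusted p from 0.0115 to 0.0211), and for ctrl periphery alone against center it called none of them (adjusted p from 0.227 to 0.352). They were Wtap, a cofactor of RNA methylation, Zbtb44, Paip1, which binds the poly(A)-binding protein, Klf13, Plau, the urokinase protease, Inpp4a, Bmp2k, Nrf1, a transcription factor of nuclear genes for mitochondria, Stox2, Cldn19, a claudin of RPE tight junctions, Fn3krp and Acnat1. Plau ran from 185 over 612 to 1358 CPM in GFP+ cells. It was at 888, 1539, 1008, 2371 and 1482 CPM in ctrl peripheral cells and at 1687, 799, 2471, 12904, 1642 and 5276 CPM in the central libraries of mice 1, 2, 4, 5, 6 and 7. Cldn19 was at 11.3 to 77.4 CPM in GFP+ cells, at 62.2 to 168 CPM in ctrl peripheral cells and at 55.5 to 868 CPM in the center. The pattern was shared: 12 of 12 genes were highest in the central library of mouse 5 and next highest in that of mouse 7, and 12 of 12 were lowest in the GFP+ library of mouse 1 or 2. In 4 of 5 mice both peripheral libraries were below the central one, and for 12 of 12 genes the central library of mouse 2 lay under the highest peripheral library.

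The share of counts from the 13 protein genes of the mitochondrial genome moved with the same libraries. It was 13.3% ± 8.56 in the periphery (SD, n = 11) and 29.1% ± 12.2 in the center (SD, n = 6), a difference of -15.8 percentage points (two-sided exact permutation p = 0.00606, adjusted p = 0.0182 over 3 library measures). GFP+ cells had 7.95% ± 5.70 (SD, n = 6) and ctrl peripheral cells 19.7% ± 6.98 (SD, n = 5). In mice 1, 4, 5 and 7 the share was lowest in GFP+ and highest in central cells, for example 17.2%, 30.4% and 47.3% for GFP+, ctrl periphery and center of mouse 5, and in mouse 2 the ctrl peripheral library was the highest, at 17.7%. All 13 genes had a log2 fold change between -1.94 and -1.48 with an unadjusted p under 0.05, and 0 passed over all genes (adjusted p from 0.127 to 0.223). With the peripheral counts summed by mouse and the mouse as a block, edgeR called 13 genes lower, and they were these 13. The 37 nuclear genes of the respiratory chain gave 0 with an unadjusted p under 0.05 and a median log2 fold change of -0.12. Of the 37, 30 had a negative and 7 a positive log2 fold change, against 52.4% positive over all genes tested. More mitochondrial RNA and less of all other RNA cannot be told apart in such shares.

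Further library measures were compared too, and not all had the direction of the mitochondrial share. Genes detected with 10 or more counts numbered 9463 ± 743 in the periphery (SD, n = 11) and 7841 ± 1998 in the center (SD, n = 6; exact permutation p = 0.0239, adjusted p = 0.0359), and total counts did not pass (p = 0.0857 in the same exact permutation test). Odorant, pheromone and trace amine receptor genes, a set looked at after the values were seen and therefore not tested, held 0.411% of counts in the periphery and 0.970% in the center, with 2.25% in the central library of mouse 5 and 1.17% in that of mouse 7. The part of these measures in the central side of the ranking was not tested. The 3 position genes were called as before when mitochondrial genes were left out of the totals.

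**Figure D4:**
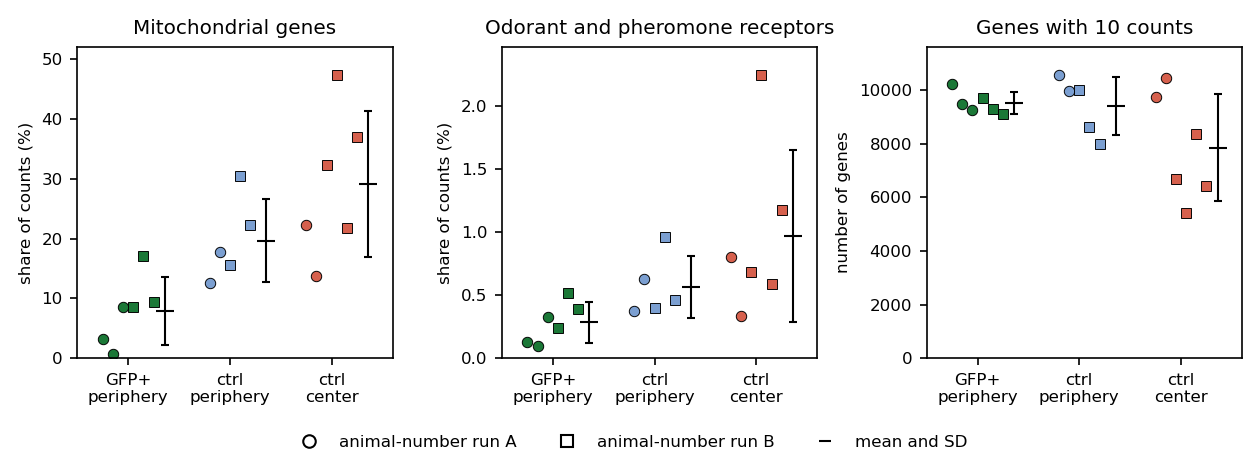
Share of counts from the 13 mitochondrial protein genes (%), share from odorant and pheromone receptor genes (%) and number of genes with at least 10 counts, 1 point per library, with mean and SD at the right of each group and circles and squares for the runs of animal numbers. The central libraries span 13.7% to 47.3% in mitochondrial share and the peripheral ones 0.710% to 30.4%.

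Of the genes that define the RPE as a tissue, none passed the adjusted edgeR test. The counts below stand beside 3.42% higher and 3.97% lower of all genes tested at an unadjusted p under 0.05. Of 11 visual cycle genes tested, Lrat, the enzyme that esterifies retinol, was the 1 with an unadjusted p under 0.05, at 830 to 1884 CPM in the periphery and 1147 to 2357 CPM in the center (log2 fold change -0.46, SE 0.21, adjusted p = 0.642), and the list median was -0.13. Of 9 RPE and eye-field transcription factors, 0 had an unadjusted p under 0.05, with Otx2 at a log2 fold change of 0.07 (SE 0.17) and Mitf at -0.14 (SE 0.42). Of 14 channels and transporters, the amino acid transporter Slc6a20a (0.60) and the chloride channel Ttyh1 (1.67) were higher at that level. Of 10 genes of outer segment uptake, Mertk, the engulfment receptor, was lower (26.4 to 117 against 93.7 to 210 CPM, log2 fold change -0.91, SE 0.29, adjusted p = 0.236 by edgeR and 0.0466 by DESeq2). Of 22 NRF2 targets, the ferritin light chain gene Ftl1 was lower (-0.34, SE 0.14, adjusted p = 0.583), and of 9 early response genes there was none.

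Genes of the matrix that the RPE shares with Bruch's membrane were mostly estimated higher in the periphery, with no member past the adjusted edgeR test. Of 18 tested, 17 had a positive log2 fold change, against 52.4% of all genes tested, and the median was 0.51 against 0.05. At an unadjusted p under 0.05, 4 were higher and 0 lower, against 3.42% and 3.97% of all genes. Col8a2, a collagen of basement membranes, was at 286 to 888 CPM in the periphery and 186 to 457 CPM in the center (log2 fold change 0.69, SE 0.26, adjusted p = 0.429). Timp3, the metalloproteinase inhibitor stored in Bruch's membrane, was at 3071 to 6015 and 2348 to 5058 CPM (0.39, SE 0.18, adjusted p = 0.649). Efemp1, a fibulin, and Col4a2, a basement membrane collagen, were at or below 0.600 and 0.299 CPM in the center and reached 31.3 and 23.3 CPM in the periphery, with 0 in some libraries of each peripheral group. DESeq2 called these last 2. The fibroblast genes of the choroid that were tested (2 of 14) gave 0 at that level, and their list summed to 119 to 541 CPM in the periphery and 2.22 to 327 CPM in the center.

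**Figure D5:**
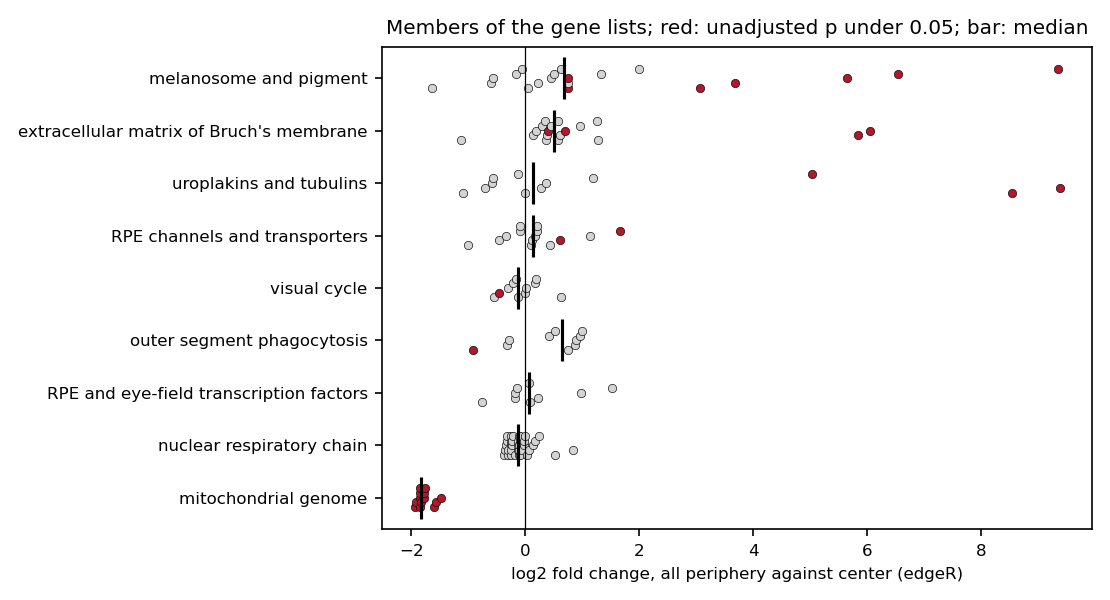
Log2 fold change of all peripheral against all central libraries for the tested members of 9 gene lists (1 point per gene, red where the unadjusted p is under 0.05, black bar at the list median). Melanosome and matrix genes have medians of 0.69 and 0.51, and visual cycle and nuclear respiratory chain genes have medians of -0.13 and -0.12. All 13 mitochondrial genes lie at or below -1.48.

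The genes that the study's text names as peripheral in macaque or human RPE were followed as a list of 7. Of the 5 tested, Serpine3 and Pmel had an unadjusted p under 0.05 and 4 had a positive log2 fold change, Serpine3 being also the gene of the sort. Nog, a BMP antagonist, was at 85.1 to 493 CPM in the periphery and 25.8 to 260 CPM in the center (log2 fold change 0.69, SE 0.43, adjusted p = 0.836). Dapl1 (0.49, SE 0.48) and Tspan10 (-0.06, SE 0.25) lay within the spread of the libraries. Aldh1a3 was at or below 1.02 CPM and Eln, the elastin gene, at or below 4.92 CPM in every library, and both were too low to be tested.

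No patterning gene passed the adjusted edgeR test. At an unadjusted p under 0.05, 1 of 8 eye axis genes was higher and 1 lower. Of 9 Wnt genes, 1 was higher and 2 were lower. Over all genes tested, the shares at that level were 3.42% higher and 3.97% lower, which also stand beside the other lists of this paragraph. Of 8 eye axis genes tested, Tbx2, a dorsal transcription factor, was at 0 to 17.5 CPM in the periphery and at or below 0.275 CPM in the center (adjusted p = 0.140 by edgeR and 0.000312 by DESeq2), and Bmp4 was the gene on the central side (0.114 and 0.0237). Of 9 Wnt genes, Dkk3, a secreted relative of the Wnt inhibitors, was at 0 in all 6 central libraries and reached 27.9 CPM in the periphery (adjusted p = 0.140 by edgeR and 0.000925 by DESeq2). Wnt4, a Wnt ligand, and Sfrp5, a secreted Wnt antagonist, were on the central side (adjusted p = 0.548 and 0.666 by edgeR and 0.0133 and 0.379 by DESeq2). Of 8 TRP channels tested, Trpm1 was higher and Trpv2 lower at an unadjusted p under 0.05, and Trpm3, a channel abundant in these libraries, was at 1495 to 2191 CPM in the periphery and 1273 to 1963 CPM in the center (0.21, SE 0.16). Of 7 photoreceptor genes tested, Pde6a, a rod phosphodiesterase subunit, was lower (1.33 to 16.4 against 9.46 to 127 CPM, adjusted p = 0.105 by edgeR and 0.00217 by DESeq2), with the summed list at 290 to 483 CPM in the periphery and 440 to 508 CPM in the center. The part of rod material in that value was not tested. Of the tested genes of other cell types, the ciliary and iris list gave Slc4a5 (1 of 2 tested) and the Mueller glia list Dkk3 (1 of 6) on the peripheral side at an unadjusted p under 0.05. The lists of ON bipolar cells (3 tested), endothelium (2) and macrophages (2) gave 0, and 0 red blood cell genes had enough counts to be tested.

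The animals fell into 2 runs of animal numbers, mice 1 to 3 and mice 4 to 7, and position was compared within each. In the first run, with 5 peripheral and 2 central libraries, 0 genes were called, and in the second, with 6 and 4, 14 were called. For Wfikkn2 the log2 fold change was 1.69 in the first and 3.54 in the second run, with an unadjusted p of 0.00522 for the difference and an adjusted p of 0.550. For Lgi1 the values were 4.73 and 5.02 and for Sdcbp 1.63 and 1.09. The difference of position between the runs passed for 0 genes by edgeR, with 667 at an unadjusted p under 0.05, and for 293 by DESeq2. The 12 genes of the central side had values between -1.02 and -0.69 in the first and between -2.55 and -1.92 in the second run, to which the central libraries of mice 5 and 7 belong. With the run as a covariate, Wfikkn2 was the 1 gene called. The mitochondrial share differed by -9.45 percentage points in the first run (exact permutation p = 0.143) and by -17.4 in the second (exact permutation p = 0.0191).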

How the data were processed

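RNA was measured in 17 hand-picked pools of RPE cells with libraries of the SMART type. The study's resource list names a SMART-Seq mRNA LP kit, whereas its methods name the lysis buffer of a SMARTer Ultra Low Input RNA kit. The authors deposited 1 table of whole-number counts per gene symbol, not normalized. The submitters' processing notes name fastp, Salmon and GRCm38.p6, and the annotation and the use of strand are not given in the sources used here, so that overlapping genes and near-identical copies may share reads. Groups, positions and mice came from the labels. All columns were matched to samples, with 0 left over. Total counts ranged from 9896118 to 22467079, and since PCR copies are counted, the precision from depth covers counting error only. A count of 0 allows up to 3 counts.

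Counts were tested with edgeR (version 4.0.16) in R (version 4.3.3): default filter, TMM normalization, quasi-likelihood test, 11 peripheral against 6 central libraries, Benjamini-Hochberg adjustment over 10312 genes. A second fit held the 3 groups. The standard error is the absolute log2 fold change divided by the square root of F. The mouse was not in the main fit, since the study's methods name DESeq2 without a block, but libraries with the same mouse number come from the same animal per the labels and are paired. Over 15 pairs the correlation of their deviations from the group means was between -0.0180 and 0.0928. Separate animals stand behind the mouse numbers, while the 3 pools of a mouse share it, so that p-values without the block treat libraries of 1 mouse as independent. No library was a copy of another (highest correlation 0.924, lowest chi-square per gene 82.8). Library measures and the pseudo-F used two-sided and one-sided exact permutation tests. Alternatives were DESeq2 (version 1.42.0), limma voom (version 3.58.1) and those described below. The procedure was also run on simulated counts, with less spread than these data, changes in well-counted genes only and no shared mice. That run therefore does not measure its error rate here. Gene positions are those of GENCODE M21 on GRCm38, which held 98.2% of the symbols. Promoters are from RefSeq.

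The text names Wfikkn2, Trpm1 and Serpine3, then the position genes by fold change, filled to 12 per direction by the smallest unadjusted p with both groups shifted the same way, up to 4 genes of each of 27 lists by smallest p, and defining genes of other cells. Gene names outside that rule (Otx2, Mitf, Sox10, Glul, Gdf11, Mstn, Trpm3, Tyr, Tspan10, Aldh1a3, Eln, Mreg, Bambi, Ltbp1 and the genes without overlap) were chosen after their values were seen. The members and lists were chosen with earlier results of these data known.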

Additional observations from a re-analysis of the deposited data

Results flagged for a closer look

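Of 148 sets of values (1 quantity in 1 group of 5 or 6 libraries, sets at or under 3 counts left out), 25 held a highest or lowest library that stood apart from the rest by Dixon's test. That test flags about 1 of 20 sets where values are normal and independent. Neither was checked for these CPM values, and many of the genes had been picked from these same data, so the number is not set against chance. The central library of mouse 5 accounted for 10 of the 25. It was the highest for Plau (12904 CPM), Stox2 (4328 CPM), Nrf1 (3818 CPM), Bmp2k (2035 CPM), Zbtb44 (1655 CPM), Inpp4a (1026 CPM), Fn3krp (660.3 CPM), Wtap (651 CPM) and Acnat1 (607 CPM), and the lowest for Pcyt2 (0.185 CPM, against 23.3 CPM in the next library). This library also had the highest mitochondrial share, the highest receptor share and the fewest detected genes, and the part of these measures in the values above was not tested.

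In ctrl peripheral libraries, single values apart were Tubb4a (8.76 CPM in mouse 4), App (1029 CPM in mouse 5), Inpp4a (174 CPM in mouse 5), Tyrp1 (127 CPM in mouse 2), Pmel (16.0 CPM in mouse 2), Serpine3 (0.279 CPM in mouse 1) and Hbb-bs (0.669 CPM in mouse 1). In GFP+ libraries they were Gpnmb (786 CPM in mouse 1), Cnppd1 (23.6 CPM in mouse 2), Pacsin2 (70.7 CPM in mouse 2), Mitf (32.4 CPM, the lowest, in mouse 2) and, in mouse 3, Pecam1 (2.31 CPM) and Hbb-bs (7.29 CPM), each the highest of its group at a low level. In other central libraries they were Upk3b (40.0 CPM in mouse 4) and Rlbp1 (5655 CPM in mouse 7).

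For 1 gene, Col1a1, every mouse with both positions in one run of animal numbers had a higher peripheral than central mean and every such mouse of the other run a lower one. Its highest level in any library was 1.29 CPM, and the difference was not tested.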

How the results depend on the processing

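Counts of calls depended on the tool and on single libraries. DESeq2 called 211 genes higher and 273 lower, 478 position genes, 46 genes in both peripheral groups, 85 between the peripheral groups, 697 for GFP+ and 95 for ctrl periphery against center and 293 for the difference between runs. Of these, 45 higher and 117 lower genes had been removed by edgeR's filter. With stricter limits (adjusted p under 0.01, log2 fold change beyond 1 either way), edgeR kept 1 gene higher (1 position gene) and 5 of GFP+ against center. Without a filter there was 1 gene lower (Bex2), 1 in both groups and 1 for ctrl periphery against center. The mouse as a replicate block left 0 higher and 0 position genes. Counts summed by mouse gave 1 lower and called Trhde, Tubb4a, Upk1b and Wfikkn2 in all, and with the replicate block 0 higher and 13 lower. The run covariate gave 1 higher and 1 position gene. Chosen after seeing the data, limma voom with the mouse as a random effect (correlation 0.0266) gave 1 higher, 2 lower (Kcnab1, Mif and mt-Atp6 in all, 0 shared with the main test), 4 between the peripheral groups, 49 for GFP+ and 7 for ctrl periphery against center, and leaving out the central libraries of mice 5 and 7 together gave 1 higher, 1 lower and 9 for GFP+. Median-of-ratios scaling gave 4 genes lower without overlap. Within the first run the mitochondrial difference of -9.45 points did not pass.

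With 1 library left out, genes higher ranged from 1 to 24, genes lower from 0 to 68, position genes from 1 to 92, genes in both groups from 0 to 3, calls between the peripheral groups from 0 to 0, calls of GFP+ against center from 5 to 146 and of ctrl periphery from 0 to 3, genes without overlap from 11 to 45 higher and from 2 to 10 lower, the pseudo-F from 1.64 to 2.37, the mitochondrial difference from -18.9 to -12.1 points and calls between runs from 0 to 34. Bcan, Kcnab1 and Wfikkn2 were the 3 in both groups without the central library of mouse 1.

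For 33 named genes, 984 alternative fits gave 0 reversed directions, 68 that newly passed and 38 that no longer passed. The replicate block left no named gene called, since Wfikkn2, Lgi1 and Sdcbp, the 3 called in the main test, all lost the call. Depth limits what can be said of genes near 0 in the center (Trpm1, Pmel, Tubb4a, Upk1b, Mpp3).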

Other observations

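Some genes too sparse for edgeR's filter had next to no counts in the center. The following were chosen after their values were seen. Bambi, a decoy receptor of the TGF-beta family, was at 0 in all 6 central libraries, at or below 0.0518 CPM in ctrl peripheral cells and between 0 and 15.2 CPM in GFP+ cells, with a median of 1.65 CPM. Cd14, a receptor for bacterial lipids best known from macrophages, was at 0 in the center. It was at 0 to 3.18 CPM in ctrl peripheral cells and at 0 to 13.6 CPM in GFP+ cells. Aif1, a defining macrophage gene, was at 0 in all peripheral libraries. The whole macrophage and microglia list, however, summed to a median of 108 CPM in the periphery and 89.6 CPM in the center. The part of macrophage RNA in the Cd14 values was not tested. Pros1, a bridging ligand of outer segment uptake, had 1 count over the center and reached 31.5 CPM in GFP+ and 6.27 CPM in ctrl peripheral cells. DESeq2 called Cd14 and Pros1 higher over all peripheral libraries (adjusted p = 0.00814 and 0.00257). It called Bambi too, but the fitted fold change rests on a center at 0, and its values were an adjusted p of 0.0324 for GFP+ and 1 for ctrl periphery against center. On the central side it called Ednrb, an endothelin receptor of pigment cell precursors, at or below 0.556 CPM in the periphery and at 0.0841 to 3.41 CPM in the center (adjusted p = 0.0302).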
